A study of Homo sapiens with 10 samples.

Results

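The NF-κB module was followed through 10 RNA-seq libraries of U2932, an established human cell line from a diffuse large B cell lymphoma. It was chosen by gene symbol and holds 33 genes: the transcription factor subunits, the IκB inhibitors, the kinases and adaptors that release them, the deubiquitinases that end the signal, and a few classical target genes. All 33 were found among the 21174 gene identifiers of the count table, and 32 passed a filter on low counts that kept 11961 genes. EBI3, a cytokine subunit, did not pass.

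The libraries were labelled by CREBBP status as CREBBP+/+ (5 clones, WT_1 to WT_5) or CREBBP+/- (5 clones, with table columns Het_6 to Het_10, numbers that the labelled clones do not carry), and name no treatment. All clones came from the same line and were grown in RPMI medium with serum. The route by which the allele was changed, and the origin of each clone, do not appear in the labels, so a genotype difference is a difference between these clones of 1 line. Nothing in the labels ties the clones to separate cultures, and p-values therefore cover only the spread between libraries, which may be technical. CREBBP, a histone acetyltransferase and coactivator, had 118, 103, 103, 115 and 136 CPM (counts scaled to a common library total of 1e+06) in WT_1 to WT_5 and 71.4, 77.4, 56.8, 61.5 and 80.7 in Het_6 to Het_10. Every CREBBP+/- library lay below every CREBBP+/+ library. Its log2 fold change was -0.73 (SE 0.12, exact permutation p = 0.00794, the smallest possible with 5 and 5 libraries). Over all genes it missed the edgeR threshold (adjusted p = 0.395) and passed that of DESeq2 (adjusted p = 8.68e-05).

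NF-κB proteins are dimers of RELA, REL, RELB and the products of NFKB1 and NFKB2. In the canonical arm, receptor signals pass through adaptors such as MYD88, IRAK1 and TRAF6 to the IKK complex (IKBKB, CHUK and the scaffold IKBKG), which marks the inhibitor IκBα (NFKBIA) for destruction, so that RELA and REL dimers enter the nucleus. In the alternative arm, the kinase NIK (MAP3K14), which TRAF3, TRAF2, BIRC2 and BIRC3 normally keep low, acts through CHUK to process NFKB2 and free RELB. The dimers bind κB sites and switch on their own brakes, among them NFKBIA and TNFAIP3 (A20). U2932 is classed with the activated B cell type of this lymphoma, of which constant NF-κB activity is a known trait, and CREBBP and its paralogue EP300 are known coactivators of RELA.

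The 250 bases before the transcription start are shown for 5 genes to make the binding element of the module visible: NFKBIA, BIRC3, NFKB2 and CD83, which hold matches to the κB consensus, and BCL3, which varied 6.30-fold between libraries and holds none. The sequences are from RefSeq (GRCh38.p14), read 5′ to 3′ on the gene's strand, and capitals mark every base inside a match to the κB decamer consensus on either strand. The windows are chr14:35404750-35404999 (minus strand) for NFKBIA, chr11:102317234-102317483 (plus) for BIRC3, chr10:102395455-102395704 (plus) for NFKB2, chr6:14117522-14117771 (plus) for CD83 and chr19:44748458-44748707 (plus) for BCL3.

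NFKBIA: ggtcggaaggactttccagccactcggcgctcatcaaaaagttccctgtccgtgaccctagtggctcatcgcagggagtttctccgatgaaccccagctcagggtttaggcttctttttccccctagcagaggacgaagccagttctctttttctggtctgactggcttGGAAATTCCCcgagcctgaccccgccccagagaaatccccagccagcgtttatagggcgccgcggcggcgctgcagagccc

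BIRC3: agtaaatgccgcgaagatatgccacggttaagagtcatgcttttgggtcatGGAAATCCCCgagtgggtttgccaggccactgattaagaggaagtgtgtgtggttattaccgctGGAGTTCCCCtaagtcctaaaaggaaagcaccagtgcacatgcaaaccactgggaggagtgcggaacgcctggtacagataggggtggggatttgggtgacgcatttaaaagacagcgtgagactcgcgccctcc

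NFKB2: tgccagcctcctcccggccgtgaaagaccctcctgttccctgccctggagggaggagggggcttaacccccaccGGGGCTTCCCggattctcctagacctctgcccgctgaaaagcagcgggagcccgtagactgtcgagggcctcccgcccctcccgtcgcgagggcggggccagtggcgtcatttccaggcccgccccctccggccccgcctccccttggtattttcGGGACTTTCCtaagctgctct

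CD83: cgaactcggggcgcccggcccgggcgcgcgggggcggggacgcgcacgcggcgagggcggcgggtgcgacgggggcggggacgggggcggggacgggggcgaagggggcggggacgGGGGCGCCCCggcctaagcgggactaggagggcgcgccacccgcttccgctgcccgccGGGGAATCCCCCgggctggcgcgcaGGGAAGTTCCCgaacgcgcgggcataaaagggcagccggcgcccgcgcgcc

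BCL3: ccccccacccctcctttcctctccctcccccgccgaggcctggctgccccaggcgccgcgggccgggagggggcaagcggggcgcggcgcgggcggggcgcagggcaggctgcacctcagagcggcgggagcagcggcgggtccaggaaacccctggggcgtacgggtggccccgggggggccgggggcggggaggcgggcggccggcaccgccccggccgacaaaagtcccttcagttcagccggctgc

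In NFKBIA the match GGAAATTCCC lay 81 to 72 bases before the start. NFKB2 held GGGACTTTCC at 21 to 12 bases, BIRC3 held GGAAATCCCC at 199 to 190 and GGAGTTCCCC at 135 to 126, and CD83 held 6 matches, several of them overlapping in the same G- and C-rich runs. TNIP1 carried the letters GGGACTTTCC too, at 42 to 33 bases, and TNFAIP3 carried GGAAAGTCCC and GGAAATCCCC at 67 to 58 and 55 to 46 bases. Of the 29 genes with a RefSeq promoter in the table used here, 15 had at least 1 match in this window, against 3498 of 35116 promoters (9.96%). For each of the 29 only the start nearest the canonical one was used, which in CFLAR lay 2552 bases from it. The 35116 include every listed start of a gene, and the module was chosen to hold known targets, so the shares are not like for like. A match is a run of letters, not a measured binding site, and a window without one says nothing of κB elements elsewhere. NFKBIE, IKBKB, RELB and IER3 are named only.

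The libraries did not sort by genotype. Average-linkage clustering used 11855 tested genes, without the 33 genes, the further pathway genes below or CREBBP. The tree was cut into 3 groups, a number set beforehand. They were WT_1, WT_2 and Het_8 (the cluster of 3), WT_3, WT_4, WT_5, Het_6 and Het_7 (the cluster of 5), and Het_9 and Het_10 (the cluster of 2). Clustering the 32 tested genes of the module alone, cut at the same set number, put the libraries in the same groups. So the number of groups is a setting and not a result. Total counts ran from 10615977 (Het_9) to 23020694 (Het_6). The 6 mature B cell markers were all expressed, with a summed level of 1950 to 2290 CPM in the cluster of 3, 3010 to 3460 in the cluster of 5 and 3060 to 3130 in the cluster of 2. The 4 T cell markers summed to at most 0.599 CPM and the 4 myeloid ones to at most 1.47 in any library, and CD3D, CD2, NKG7, COL1A2 and HBB were at 0 in all 10. The 3 epithelial markers summed to 1.64 to 13.7 CPM in the cluster of 3 and 19.8 to 26.7 elsewhere. Nearly all of that sum was EPCAM, since KRT8 reached at most 0.0546 CPM and KRT18 at most 0.164. The 4 stromal markers summed to 0.193 to 0.677 CPM in 8 libraries and to 1.58 and 2.30 in the cluster of 2, where NK markers also reached 2.61 and 3.95, all of it NCAM1. The part of these differences in the results was not tested, and in bulk RNA fewer cells of a type and less RNA per cell cannot be told apart.

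Per kilobase of the canonical transcript, the most abundant RNA of the module was CD83, a surface protein of activated B cells, at 161 ± 21.9 CPM per kilobase (mean ± SD, n = 10). NFKBID, a nuclear IκB protein, followed at 66.6 ± 11.2, and TNIP1, a partner of A20, at 65.1 ± 12.4, and these 2 lay within their spread of each other. Among the subunits the order was RELA at 36.5 ± 5.06, NFKB1 at 32.6 ± 2.15, RELB at 28.8 ± 9.84, REL at 23.1 ± 3.48 and NFKB2 at 21.2 ± 3.32, and adjacent subunits in this order did not differ beyond their spread. The place of REL depends on the length used, a canonical transcript of 11108 bases. Before scaling by length REL had the highest mean of the subunits, 257 CPM, followed by NFKB1 at 132 CPM. NFKBIB stood at 49.9 ± 13.0 and NFKBIA at 39.1 ± 21.8, the second of these with the larger spread between libraries. At the low end were TRAF6, the ubiquitin ligase of the MYD88 route, at 1.88 ± 0.313, IER3, an immediate early gene, at 1.13 ± 0.604, and EBI3 at 0.319 ± 0.152 CPM per kilobase.

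**Figure D1:**
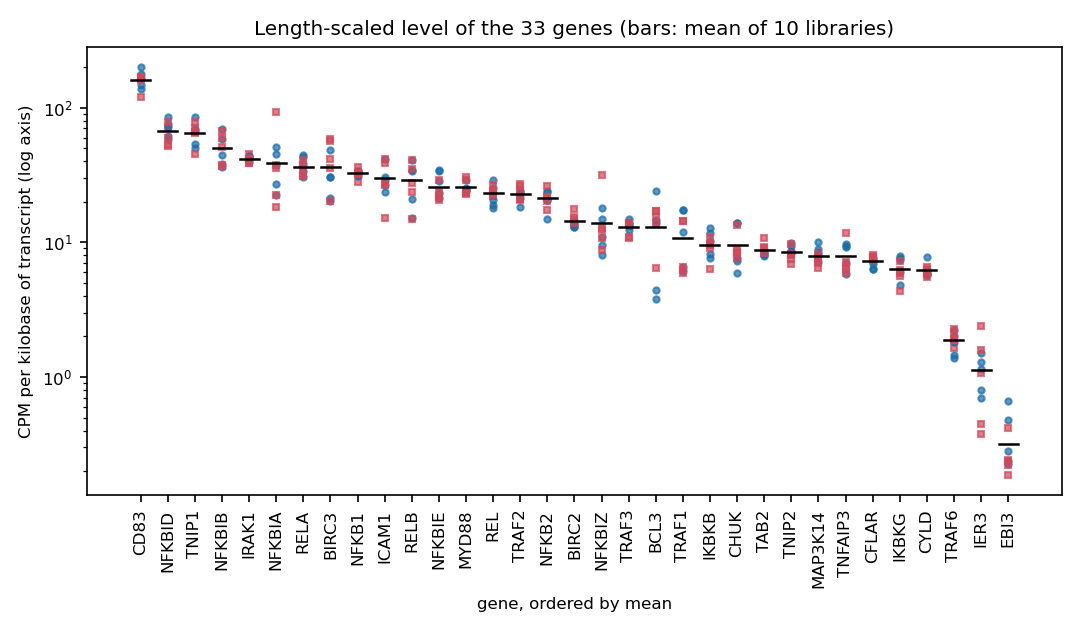
Level of each of the 33 genes in CPM per kilobase of canonical transcript on a log axis, ordered by mean, with 1 point per library (blue circles CREBBP+/+, red squares CREBBP+/-) and a bar at the mean of 10. CD83 stands highest at 161 and EBI3 lowest at 0.319, and the genes with the widest columns of points include NFKBIA, BCL3 and IER3.

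No gene of the module passed the test between CREBBP+/- and CREBBP+/+ libraries. In the quasi-likelihood F-test of edgeR, 0 of 32 had an adjusted p under 0.05, beside 0 of 11961 genes (0%), and their adjusted p ranged from 0.977 to 0.998. Only CFLAR had an unadjusted p under 0.05 (1 of 32, beside 4.98% of all genes). DESeq2 called none of the 32 at an adjusted p under 0.05, beside 0.268% of all genes, and limma-voom called none, beside 0 of 11961 genes. Each of these had 1 of the 32 at an unadjusted p under 0.05, a count without the share of all genes beside it. For none of the 32 did all libraries of one genotype lie above all of the other, as they did for 1.02% of all genes. The median log2 fold change over the 32 genes was -0.02, with 14 above 0 and 18 below, and the median of all genes tested was -0.01.

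The 95% intervals show how large a difference these libraries leave room for. They lay within 1 log2 unit on both sides of 0 for 26 of 32 genes and within 0.5 for 18. The widest belonged to IER3 (-0.97 to 1.22), BCL3 (-0.86 to 1.27), NFKBIA (-0.75 to 1.11) and TRAF1 (-1.17 to 0.55). The narrowest included IRAK1 (-0.19 to 0.13), NFKB1 (-0.20 to 0.16) and CFLAR (0.00 to 0.34).

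**Figure D2:**
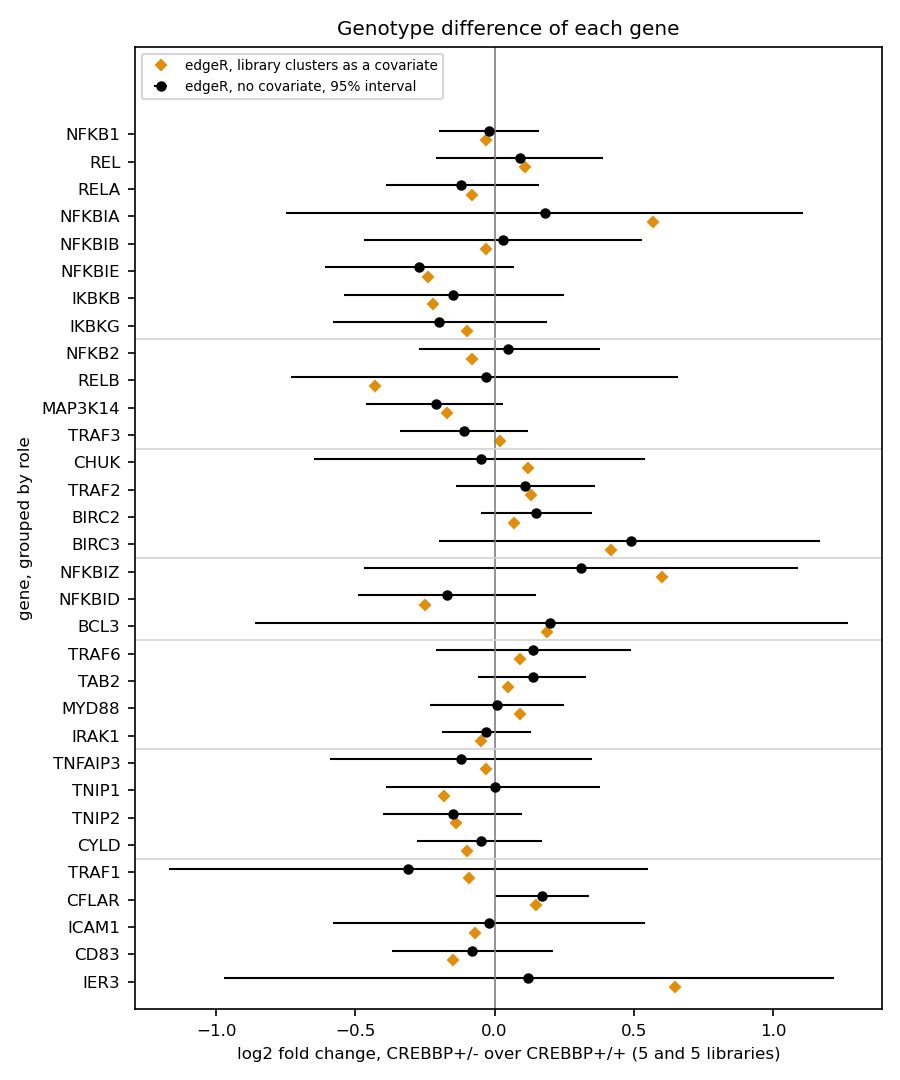
Log2 fold change of CREBBP+/- over CREBBP+/+ libraries for the 32 tested genes, grouped by role. Black points with bars are the edgeR values with 95% intervals from 5 and 5 libraries, and orange diamonds are edgeR values with the 3 library clusters as a covariate. Every black bar but that of CFLAR crosses 0, and the diamonds of NFKBIA (0.57), NFKBIZ (0.60) and RELB (-0.43) lie well away from their black points.

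None of the canonical subunits differed by genotype beyond the spread between libraries. NFKB1, which encodes p105 and p50 (ENSG00000109320, chromosome 4, 102501330 to 102617302), had 137, 133, 126, 138 and 132 CPM in WT_1 to WT_5 and 148, 132, 114, 130 and 132 in Het_6 to Het_10. The CREBBP+/- values spanned those of CREBBP+/+ (log2 fold change -0.02, SE 0.08). REL, the c-Rel subunit typical of B cells, had 210, 199, 228, 323 and 283 CPM in CREBBP+/+ and 297, 268, 246, 248 and 263 in CREBBP+/- libraries. Both genotypes held low and high libraries, and the highest and the lowest were CREBBP+/+ (log2 fold change 0.09, SE 0.14). RELA, the main partner of p50, averaged 95.6 ± 14.8 and 88.2 ± 10.6 CPM (SD, n = 5 each), a log2 fold change of -0.12 (SE 0.12).

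Among the inhibitors of the canonical arm, NFKBIA varied 5.07-fold between libraries, against 1.93-fold for NFKBIB and 1.68-fold for NFKBIE. NFKBIA (ENSG00000100906, chromosome 14, 35401079 to 35404749) had 71.1, 79.2, 58.5, 42.0 and 35.2 CPM in WT_1 to WT_5 and 58.7, 55.8, 146, 34.8 and 28.7 in Het_6 to Het_10. Its highest and its lowest values both came from CREBBP+/- libraries, and the groups overlapped fully (log2 fold change 0.18, SE 0.42). Without Het_8 the value was -0.36. NFKBIB, which encodes IκBβ, averaged 58.8 ± 17.1 and 60.1 ± 15.8 CPM, and NFKBIE, which encodes IκBε, 66.3 ± 14.1 and 54.9 ± 7.60 CPM (log2 fold change -0.27, SE 0.15, edgeR adjusted p = 0.988). The kinase IKBKB averaged 39.8 ± 8.75 and 36.0 ± 6.61 CPM. Its scaffold IKBKG, at 13.3 ± 2.56 and 11.6 ± 2.08 CPM, has a near-identical pseudogene copy, so its level is uncertain. Whether reads were counted by strand is not stated in the labels. REL shares 33.3% of its exon bases with a long non-coding gene on the same strand. IER3 (32.6%), ICAM1 (23.6%) and MAP3K14 (15.1%) share theirs with antisense genes. Whether reads of the overlapping genes were kept out of these levels is not known.

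Genes of the alternative arm had small differences of either sign. MAP3K14, the NIK kinase, had 36.4, 31.9, 37.4, 44.8 and 39.7 CPM in CREBBP+/+ and 36.6, 34.2, 31.4, 28.5 and 33.2 in CREBBP+/- libraries. The 3 highest values were CREBBP+/+ and the lowest was Het_9, with overlap between the groups (log2 fold change -0.21, SE 0.11, edgeR adjusted p = 0.984). RELB (ENSG00000104856, chromosome 19, 45001461 to 45038192) had 47.2, 34.3, 78.2, 92.5 and 76.8 CPM in CREBBP+/+ and 62.6, 53.2, 33.7, 79.3 and 92.9 in CREBBP+/- libraries. Both genotypes held libraries near the top and near the bottom of the range (log2 fold change -0.03, SE 0.31). NFKB2, whose product is processed to the RELB partner p52, averaged 62.6 ± 11.3 and 65.0 ± 9.74 CPM. TRAF3, which holds NIK low, averaged 106 ± 7.44 and 98.3 ± 12.9 CPM.

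Of the genes that serve both arms, BIRC3, a ubiquitin ligase of the TRAF2 and TRAF3 complex and itself a classical target (ENSG00000023445, chromosome 11, 102317484 to 102339403), had the highest estimate of the 32 genes. It had 146, 140, 335, 209 and 210 CPM in WT_1 to WT_5 and 388, 399, 140, 285 and 244 in Het_6 to Het_10. Het_6 and Het_7 were the highest of all, but Het_8 equalled the lowest CREBBP+/+ libraries, so the groups overlapped. The log2 fold change was 0.49 (SE 0.31, interval -0.20 to 1.17, edgeR adjusted p = 0.988), and it ran from 0.35 to 0.73 with 1 library left out. Its neighbour and paralogue BIRC2 averaged 50.8 ± 2.05 and 56.5 ± 6.5 CPM, TRAF2 49.9 ± 5.23 and 53.8 ± 6.79, and CHUK, the IKKα kinase, 34.9 ± 13.9 and 33.6 ± 8.58.

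Nuclear IκB proteins bind NF-κB on chromatin and tune its targets, and 2 of the 3 were among the most variable genes here. NFKBIZ, which encodes IκBζ (ENSG00000144802, chromosome 3, 101827991 to 101861022), had 57.9, 71.2, 43.0, 31.6 and 37.5 CPM in CREBBP+/+ and 48.5, 49.7, 123, 34.5 and 42.5 in CREBBP+/- libraries. Het_8 stood alone at the top, and the other 4 CREBBP+/- libraries lay inside the CREBBP+/+ range (log2 fold change 0.31, SE 0.35, and -0.14 without Het_8). BCL3, a partner of p50 and p52 homodimers (ENSG00000069399, chromosome 19, 44747705 to 44760044), had 7.15, 8.29, 45.1, 27.4 and 26.0 CPM in CREBBP+/+ and 32.4, 32, 12.1, 26.1 and 28.9 in CREBBP+/- libraries. WT_1, WT_2 and Het_8 were the low ones, and genotype did not order the rest (log2 fold change 0.20, SE 0.48). NFKBID averaged 123 ± 18.8 and 109 ± 19.5 CPM.

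The adaptors and the deubiquitinases varied at most 2.02-fold between libraries. IRAK1, a kinase of the Toll-like receptor route, lay between 138 and 161 CPM in all 10 libraries, the narrowest relative range of the module. MYD88, the adaptor of that route, averaged 68.1 ± 5.51 and 68.6 ± 9.87 CPM, TAB2, which couples ubiquitin chains to the kinase TAK1, 36.2 ± 1.22 and 39.8 ± 4.17, and TRAF6 14.1 ± 2.90 and 15.6 ± 1.98. TNFAIP3, the A20 enzyme that shuts NF-κB signals down, had 45.2, 43.0, 27.2, 43.8 and 32.8 CPM in CREBBP+/+ and 27.5, 31.1, 55.0, 29.6 and 33.3 in CREBBP+/- libraries. Het_8 was the highest and the other 4 CREBBP+/- libraries sat in the lower range of CREBBP+/+ (log2 fold change -0.12, SE 0.21). TNIP1 averaged 187 ± 40.8 and 187 ± 34.6 CPM, TNIP2 17.4 ± 1.35 and 15.6 ± 2.05, and CYLD, a deubiquitinase, 53.8 ± 7.43 and 51.9 ± 3.29.

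Among the targets, CFLAR, which encodes the caspase 8 inhibitor c-FLIP (ENSG00000003402, chromosome 2, 201116154 to 201176687), had 106, 100, 111, 92.2 and 92.8 CPM in CREBBP+/+ and 115, 111, 108, 114 and 118 in CREBBP+/- libraries. WT_3 lay inside the CREBBP+/- range and the other 4 CREBBP+/+ libraries lay below all CREBBP+/- libraries. The log2 fold change was 0.17 (SE 0.08, edgeR adjusted p = 0.977), a difference that did not pass. TRAF1, an adaptor induced by NF-κB, averaged 51.5 ± 24 and 41.5 ± 19.7 CPM, ICAM1, an adhesion molecule, 89.9 ± 20.1 and 88.6 ± 31.5, and CD83 385 ± 56.9 and 363 ± 48.4. IER3 was sparse, with 19 to 34 counts per CREBBP+/+ library and 6 to 54 per CREBBP+/- library. EBI3, with 3 to 17 counts per library, was not tested.

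More genes of the module were divided by library cluster than by genotype. The cluster values are a description with no test, since the clusters were made from these libraries. In WT_1, WT_2 and Het_8, 3 of 32 genes lay above all of the other 7 libraries (NFKBIA, NFKBIZ and CHUK, 9.38%, beside 16.1% of all genes), and 6 lay below (IKBKB, RELB, BIRC3, BCL3, TRAF6 and TNIP1, 18.8%, beside 17% of all genes). The first share lies below that of all genes and the second close to it, so these counts do not set the module apart. The median SD of log2 CPM over the 10 libraries was 0.25 for the 32 genes and 0.27 for all genes tested.

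**Figure D3:**
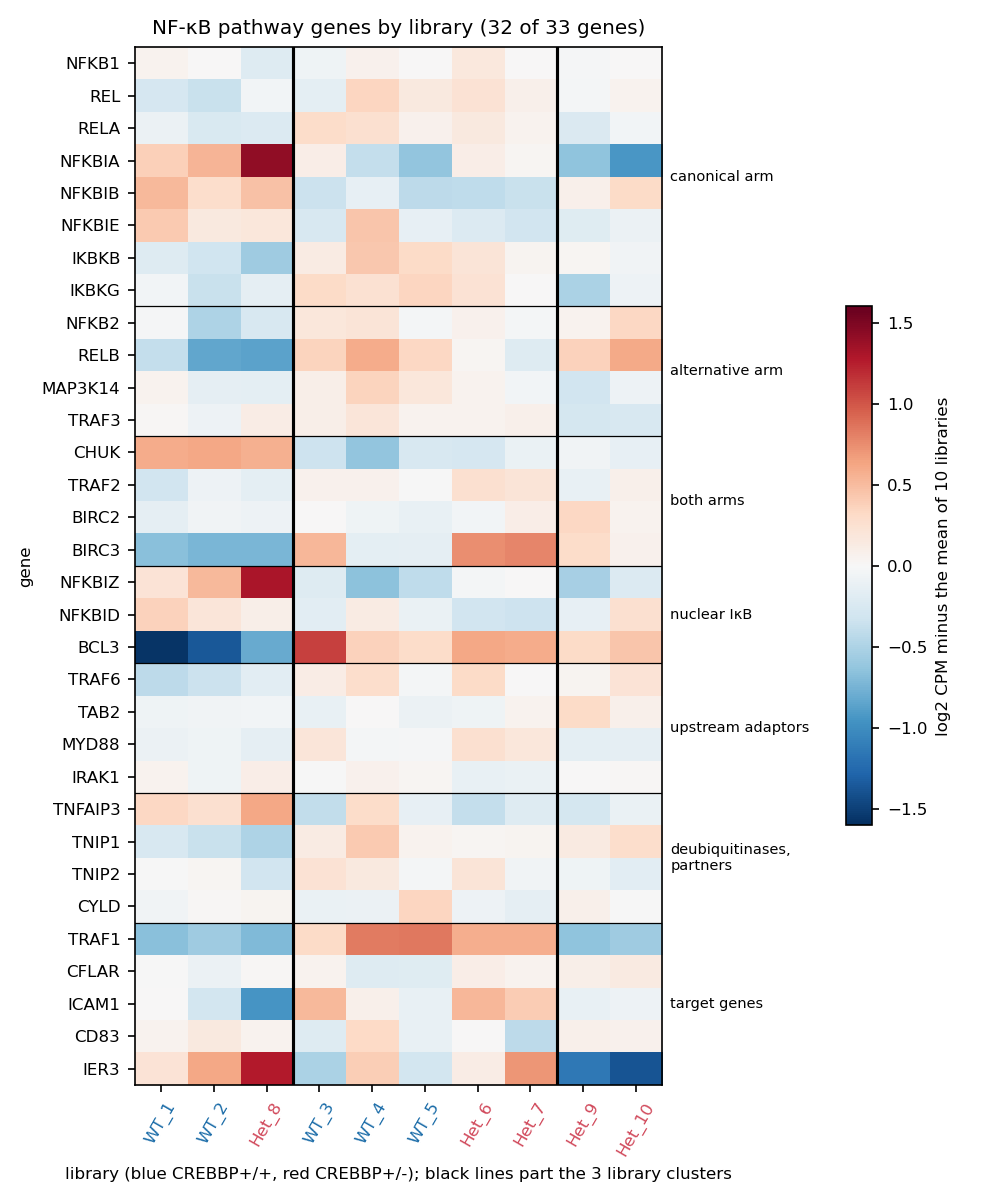
Log2 CPM of 32 genes (rows, by role) in 10 libraries (columns, by cluster) as the difference from the gene's mean over 10 libraries, with negative values in blue and positive ones in red. WT_1, WT_2 and Het_8 are red for NFKBIA, NFKBIZ and CHUK and blue for BCL3, RELB, BIRC3 and TRAF1, while NFKB1 and IRAK1 are pale throughout.

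The cluster of 3 held the inhibitor NFKBIA at 71.1 to 146 CPM, against 28.7 to 58.7 in the other 7 libraries, and NFKBIZ at 57.9 to 123 against 31.6 to 49.7. In both genes Het_8 was well above WT_1 and WT_2. CHUK had 49.6, 50.4 and 48.7 CPM in WT_1, WT_2 and Het_8 and 21.2 to 31.5 in the rest, so the 3 libraries lay close together and clear of the other 7. TNFAIP3 was also high there, at 43.0 to 55.0 CPM, but WT_4 with 43.8 reached into that range.

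In the other direction, BCL3 had 7.15 to 12.1 CPM in the cluster of 3 and 26.0 to 45.1 in the rest, a ratio of means of 3.39. BIRC3 had 140 to 146 against 209 to 399 CPM (ratio 2.08), and RELB 33.7 to 47.2 against 53.2 to 92.9 (ratio 1.99). Smaller gaps without overlap were those of TNIP1 (130 to 154 against 187 to 246 CPM), IKBKB (25.1 to 32.1 against 35.9 to 50.3) and TRAF6 (10.9 to 13.0 against 14.3 to 18.0). Genes with κB matches before the start stood on both sides of this contrast: NFKBIA and NFKBIZ were high in the cluster of 3, and BIRC3 and TNIP1 were low. CHUK, BCL3 and TRAF6 held no match in that window, and IKBKB and RELB had no promoter to search. A part of κB sites in these levels was not tested.

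**Figure D4:**
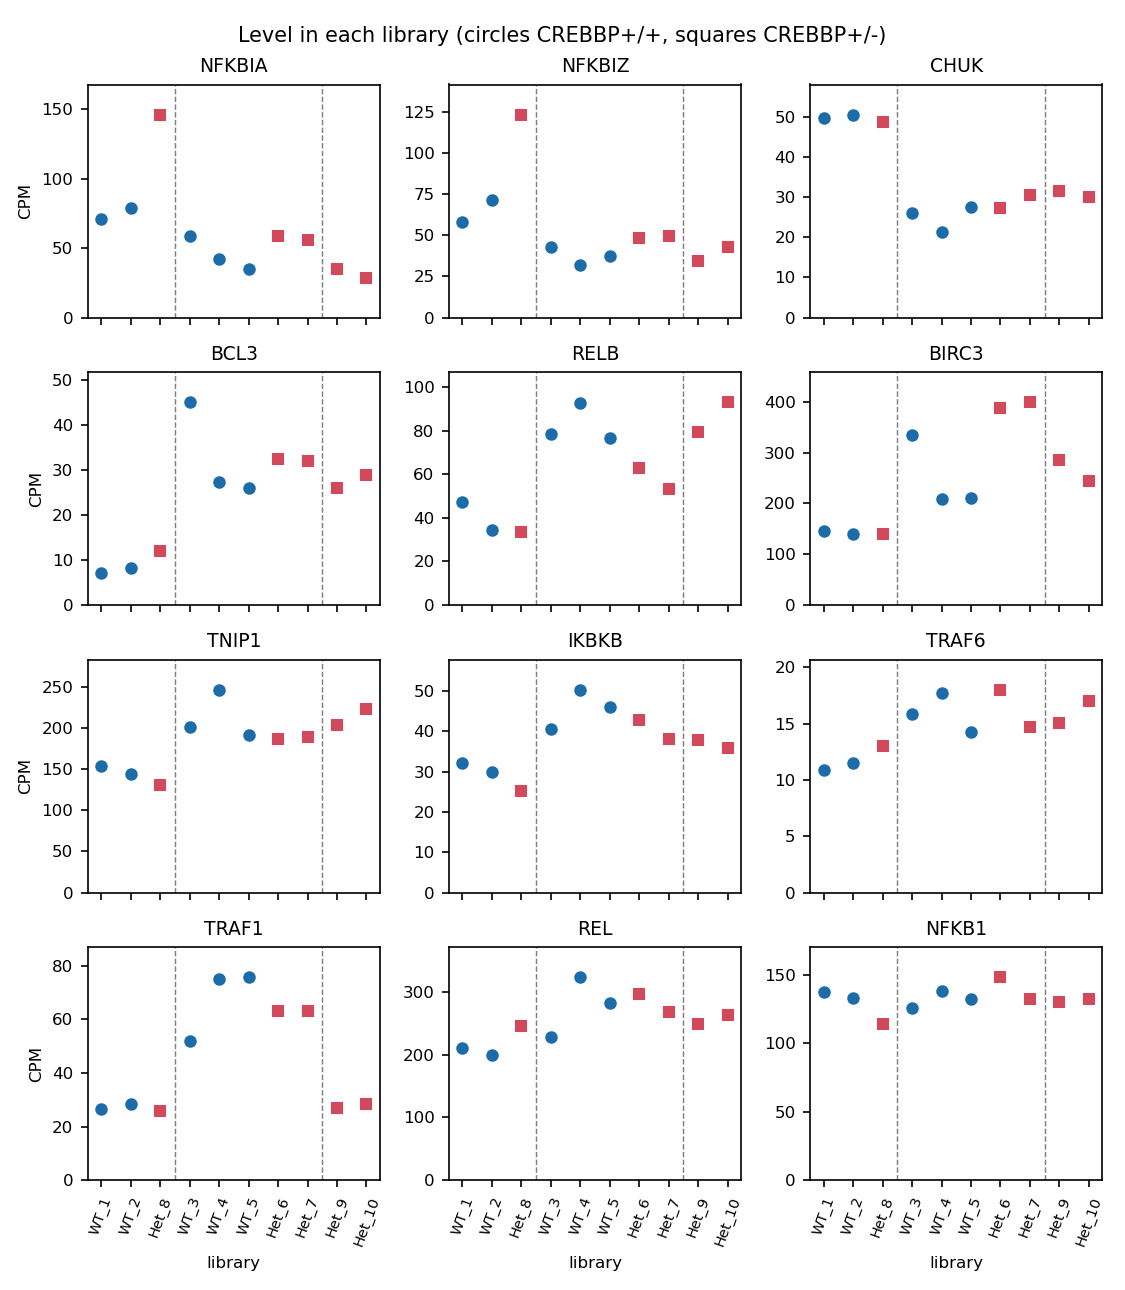
CPM of 12 genes in each library on linear axes from 0, with dashed lines between the 3 clusters (blue circles CREBBP+/+, red squares CREBBP+/-). NFKBIA, NFKBIZ and CHUK are highest in WT_1, WT_2 and Het_8, BCL3, RELB and BIRC3 are lowest there, and TRAF1 is high only in the 5 libraries WT_3, WT_4, WT_5, Het_6 and Het_7 (52.1 to 75.7 CPM).

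TRAF1 set the cluster of 5 apart (ENSG00000056558, chromosome 9, 120902393 to 120929173). It had 52.1, 75.1, 75.7, 63.0 and 63.0 CPM in WT_3, WT_4, WT_5, Het_6 and Het_7, and 25.9 to 28.4 CPM in the other 5 libraries, with a ratio of means of 2.42. In that cluster 5 of 32 genes lay above the rest (RELA, IKBKB, IKBKG, MYD88 and TRAF1, 15.6%, beside 10.1% of all genes) and 1 below (NFKBIB, 3.12%, beside 7.97%). Het_9 and Het_10 had 1 gene above the other 8 libraries (TAB2, beside 9.78% of all genes) and 4 below (NFKBIA, TRAF3, MYD88 and IER3, 12.5%, beside 8.7%). IER3 there had 0.551 and 0.466 CPM, from 6 and 10 counts.

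Genotype was then compared inside the clusters. In the cluster of 5, Het_6 and Het_7 lay above WT_3, WT_4 and WT_5 for TRAF2, BIRC3 and NFKBIZ and below for IKBKG, RELB, MAP3K14, NFKBID, IRAK1 and TNIP1. That is 9 of 32 genes without overlap, beside 36.2% of all genes. In the cluster of 3, the single library Het_8 exceeded both WT_1 and WT_2 for 12 of 32 genes (37.5%, beside 38.3% of all genes) and lay under both for 11 (34.4%, beside 38.3%), shares close to the background. The sign of the difference was the same in both clusters for 20 of 32 genes (62.5%, beside 49.2% of all genes), a description with no test. NFKBIA was higher in CREBBP+/- libraries by 0.96 log2 units in the cluster of 3 and by 0.34 in the cluster of 5, NFKBIZ by 0.93 and 0.40, and RELB differed by -0.28 and -0.51. BIRC3 differed by -0.03 and 0.65, and ICAM1 by -0.80 and 0.28, so the sign differed between the clusters; that difference was not tested. The cluster of 2 has no CREBBP+/+ library, and there genotype and cluster cannot be told apart.

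With the clusters as a covariate in edgeR, no gene of the module passed at an adjusted p under 0.05, and 7 of 32 had an unadjusted p under 0.05, beside 12.7% of all genes. Of the 7, NFKBIZ (0.60, SE 0.14, edgeR adjusted p = 0.211), NFKBIA (0.57, SE 0.17, adjusted p = 0.274), IER3 (0.65, SE 0.28) and BIRC3 (0.42, SE 0.18) had positive log2 fold changes. RELB (-0.43, SE 0.12, edgeR adjusted p = 0.267), NFKBID (-0.25, SE 0.10) and IKBKB (-0.22, SE 0.09) had negative ones. In such a fit the genotype value rests on Het_6, Het_7 and Het_8 alone. DESeq2 with the same covariate called NFKBIZ (0.60, adjusted p = 0.00993) and no other of the 32, beside 1.61% of all genes. NFKBIZ shares 3.3% of its exon bases with NXPE3 on the same strand. The call was lost without Het_8 (0.40, adjusted p = 0.192) and without Het_7 (0.65, adjusted p = 0.066). In the cluster of 5 alone, DESeq2 called RELB (-0.51, adjusted p = 0.0308) and no other gene of the module, beside 1.45% of all genes, while edgeR called none. Without WT_4 the RELB value was -0.42 (DESeq2 adjusted p = 0.26, with 40 genes called in all in place of 176). Leaving out Het_6 or Het_7 leaves 1 CREBBP+/- library, assumed to vary like the others, and only 5 and 8 genes are then called in all, so the loss of the call there says little of RELB, whose values were -0.63 and -0.40.

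The cluster of 5 was itself uneven. WT_3 stood with Het_6 and Het_7 apart from WT_4 and WT_5 for 16 of 32 genes, 9 above (NFKBIA, TRAF2, BIRC2, BIRC3, NFKBIZ, BCL3, MYD88, CFLAR and ICAM1) and 7 below (NFKBIE, IKBKB, MAP3K14, NFKBID, IRAK1, TNFAIP3 and TRAF1), as did 45.2% of all genes. BIRC3 shows it, with 335 CPM in WT_3 beside 388 and 399 in Het_6 and Het_7, and 209 and 210 in WT_4 and WT_5. RELB did not follow this division, with WT_3 at 78.2 CPM beside 92.5 and 76.8.

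Some genes of the module moved between clusters together with their chromosomal neighbours. For CHUK, the log2 ratio of the cluster of 3 over the other 7 libraries was 0.84, and the median of 35 tested genes within 2 Mb was 0.64, with 28 of them above all other libraries. IKBKB had -0.52 and its 16 neighbours a median of -0.56, with 13 below all other libraries. NFKBIB had 0.58 beside a median of 0.47 over 80 neighbours. NFKBIA had 1.14, above the median of 0.47 of its 15 neighbours, 12 of which lay above all other libraries.

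Other genes stood apart from their surroundings. NFKBIZ had a log2 ratio of 1.03 beside a median of 0.14 over 14 neighbours, TNFAIP3 0.57 beside -0.01 over 15, and BIRC3 -1.06 beside -0.09 over 8. BCL3 had -1.76 beside -0.30 over 67 neighbours, and RELB, which lies in the same stretch of chromosome 19, -1.0 beside -0.31 over 71. TRAF1 had -1.03 beside -0.20 over 19. NFKB2 had -0.36 beside a median of 0.48 over 47 neighbours, 31 of them above all other libraries, but its own values overlapped (44.7 to 62.0 CPM in the cluster of 3 and 61.6 to 79.6 in the rest). The part of the surrounding region in these values was not tested.

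**Figure D5:**
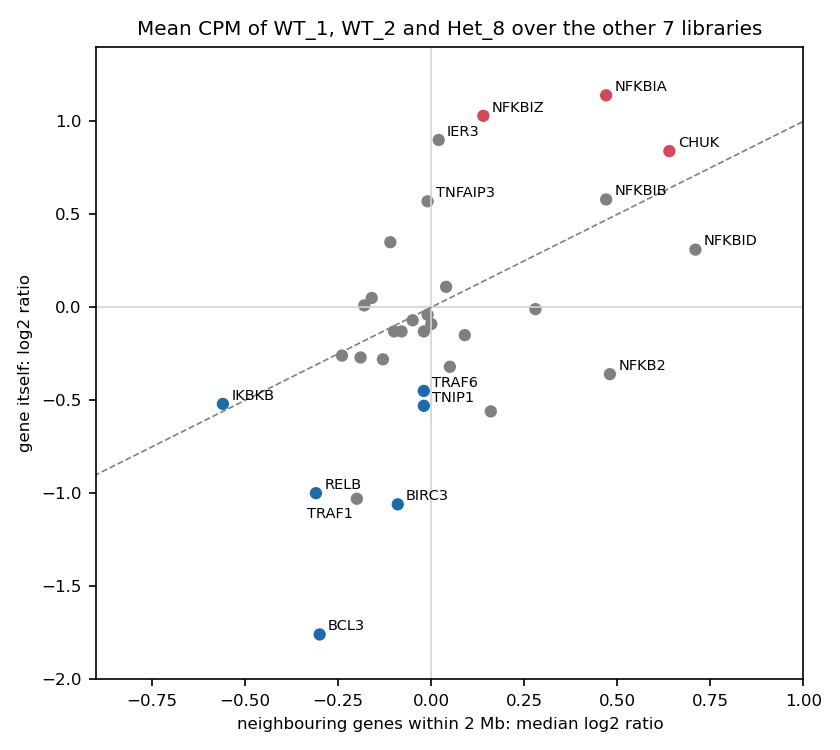
Log2 ratio of mean CPM in WT_1, WT_2 and Het_8 over the other 7 libraries, for each of the 32 tested genes (vertical) against the median of tested genes within 2 Mb (horizontal), with the line of equality dashed. Red marks genes whose 3 libraries lie above the other 7, blue below, and grey overlap. CHUK and IKBKB lie near the line, and BCL3, BIRC3, NFKBIZ and NFKB2 lie far from it.

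Further genes of the pathway, taken as 5 lists with 80 genes of which 73 were tested, likewise gave no call between genotypes. None passed in edgeR, DESeq2 or limma-voom, beside 0%, 0.268% and 0% of all genes. In edgeR 1 of the 73 (CCL4) had an unadjusted p under 0.05, beside 4.98% of all genes, so these counts do not set the pathway genes apart. The median log2 fold change was -0.04, with 28 above 0 and 45 below. The genes named are among the 3 of highest mean and the 2 of smallest p in each list. Receptors (12 tested, 4 above 0 and 8 below, median -0.10) included TNFRSF13C, the BAFF receptor, at 109 ± 39.4 and 86.9 ± 7.51 CPM in CREBBP+/+ and CREBBP+/- libraries (log2 fold change -0.33), TNFRSF17, the receptor BCMA (0.11), CD27, a costimulatory receptor (-0.30), and TLR7, a sensor of RNA (-0.62, edgeR adjusted p = 0.984). In the route from the B cell receptor to IKK (6 tested, 1 above and 5 below, median -0.13), the kinase BTK averaged 124 ± 29.4 and 99.8 ± 9.20 CPM (-0.31, edgeR adjusted p = 0.977), the protease MALT1 0.22 and the phospholipase PLCG2 -0.02.

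Other adaptors, kinases and ubiquitin enzymes (22 tested, 10 above 0 and 12 below, median -0.01) included UBE2V1 at -0.01 and UBE2N at -0.12, which together build the chains read by TAB2, TRAF4 at -0.36, the death receptor adaptor FADD at -0.19 (edgeR adjusted p = 0.986) and SHARPIN, part of the linear ubiquitin ligase, at 35.5 ± 7.83 and 27.0 ± 5.6 CPM (-0.40, adjusted p = 0.977). Other inhibitors (11 tested, 5 above and 6 below, median -0.02) included OTULIN, which cuts linear ubiquitin (-0.23), the A20 partners TAX1BP1 (0.13) and ITCH (-0.02), NFKBIL1 (-0.33, edgeR adjusted p = 0.977) and SIGIRR, a brake on interleukin 1 and Toll-like receptors (-0.62, adjusted p = 0.988). Among other targets (22 tested, 8 above and 14 below, median -0.11), IRF4, a master factor of activated B cells, had -0.09, the kinase PIM1 -0.32 and PLEK 0.10. The chemokine CCL4 averaged 6.92 ± 3.19 and 3.77 ± 1.66 CPM (-0.87, SE 0.39, edgeR adjusted p = 0.977), and CCL3 20.8 ± 9.45 and 13.6 ± 3.32 (-0.61, adjusted p = 0.986).

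The cluster of 3 had 9 of the 73 pathway genes above all other libraries (beside 16.1% of all genes) and 21 of the 73 below (beside 17%). So the share above was lower than that of all genes and the share below was higher, a description with no test. In the cluster of 5 alone, DESeq2 called 1 of the 73 (BCL2A1), beside 1.45% of all genes, so the count does not set the pathway genes apart. BCL2A1, a survival gene of the BCL2 family, had 115, 102 and 130 CPM in WT_3, WT_4 and WT_5 and 162 and 160 in Het_6 and Het_7 (log2 fold change 0.48, DESeq2 adjusted p = 0.0179). BCL2A1 and RELB were thus called in opposite directions in the same 5 libraries. Without WT_4 the BCL2A1 value was 0.40 (DESeq2 adjusted p = 0.1), and it was 0.48 and 0.49 without Het_6 or Het_7, where a lone CREBBP+/- library is left and the call is lost as for RELB. In the cluster of 3, Het_8, with 59.3 CPM, lay below WT_1 and WT_2 with 98.3 and 98.5.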

How the data were processed

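Total RNA of 10 U2932 clone libraries was sequenced, and the table deposited by the authors holds raw read counts, with Ensembl genes in rows and 1 column per library. The build GRCh38 and the tools STAR, featureCounts, FastQC and DESeq2 are named, without versions or counting options, in the submitters' processing notes. The columns Het_6 to Het_10 carry numbers that the labelled clones do not, so they were used by group only. Of 21174 identifiers, 20804 (98.3%) matched a symbol. Counts were tested with edgeR 4.0.16 in R 4.3.3 (quasi-likelihood F-test, robust, TMM, filterByExpr with minimum count 10 and minimum total 15), which kept 11961 genes and removed 9213, with Benjamini-Hochberg adjustment over all of them at 0.05, two-sided. CPM use TMM-scaled totals, and log2 CPM a prior count of 2. The exact two-sided permutation test of CREBBP ran over all assignments of 5 and 5 libraries. Lengths and coordinates are those of the Ensembl canonical transcripts and genes of GENCODE on GRCh38.

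The 33 genes, their roles, the 5 pathway lists and the tests were chosen with earlier results of these data known. All 33 genes are named, with CREBBP, EP300, and of each pathway list the 3 genes of highest mean CPM and the 2 of smallest p. BCL2A1 was named after its values were seen. Some single-gene results are not reported here, and those genes stayed in the counts. EP300 averaged 146 ± 17.0 CPM in CREBBP+/+ and 152 ± 19.1 in CREBBP+/- libraries. SOD2 was not matched and is not analysed here. No libraries agreed within sampling noise (smallest chi-square per gene 7.77), so none was merged. Alternatives were DESeq2 1.42.0, limma-voom 3.58.1, other scaling factors and filters, library clusters as a covariate, and leaving out libraries. DESeq2 with the covariate, and both tools within the cluster of 5, were chosen after seeing the data. The script was tested on simulated data.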

Additional observations from a re-analysis of the deposited data

Results flagged for a closer look

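In 9 of 114 groups of 5 values (57 genes, each in both genotypes), 1 library stood apart from the other 4 by Dixon's criterion on log2 CPM, and chance gives about 1 in 20. Het_8 was the library in 5 of the 9, all among CREBBP+/- libraries, whose other 4 members lie in other library clusters. There it was highest for CHUK (5.61, next 4.98), NFKBIZ (6.94, next 5.64) and TNFAIP3 (5.78, next 5.06). It was lowest for BCL3 (3.61, next 4.71) and for TNFRSF17, the BCMA receptor (5.24, next 7.11). WT_1 and WT_2, the libraries that cluster with Het_8, had the high CHUK and the low BCL3 and TNFRSF17 too. Their NFKBIZ (57.9 and 71.2 CPM) lay below Het_8 (123) but above the libraries outside the cluster (31.6 to 49.7). Their TNFAIP3 (45.2 and 43.0 CPM) lay below Het_8 (55.0), and outside the cluster only WT_4 (43.8) reached it.

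The remaining 4 each concern another library. MYD88 was highest in WT_3 (6.28, next 6.07), CYLD in WT_5 (6.06, next 5.74) and UBE2N in WT_2 (7.70, next 7.21), all among CREBBP+/+ libraries. CD83 was lowest in Het_7 (8.12, next 8.53).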

How the results depend on the processing

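The 32 genes gave no call between genotypes under edgeR, limma-voom, DESeq2, 2 other scalings, 2 other filters, edgeR with clusters as a covariate or in the cluster of 5, or edgeR with Het_9 and Het_10 or any 1 library left out. A call appeared in 2 settings chosen after seeing the data: DESeq2 with clusters as a covariate called 1 (NFKBIZ), and DESeq2 in the cluster of 5 called 1 (RELB) and 1 pathway gene (BCL2A1). Over all genes, edgeR called 0 and DESeq2 called 32, with the covariate 192, and in the cluster of 5 176. With 1 library left out edgeR called 0 to 1 gene, the 1 without Het_6 and outside the module and the pathway lists. The log2 fold change of CREBBP was -0.66 to -0.78 with 1 library left out and missed the edgeR threshold each time, whereas it passed in DESeq2 (-0.72), with the covariate (-0.76) and in the cluster of 5 (-0.66).

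The sign of the genotype difference held in every setting for 18 of the 32 genes and changed in at least 1 for 14, and 19 kept it with each library left out. Without Het_8, NFKBIA turned from 0.18 to -0.36 and NFKBIZ from 0.31 to -0.14, and BCL3 ranged from -0.02 (without WT_1) to 0.61 (without WT_3). Genes whose genotypes did not overlap numbered 0 to 1 with 1 library left out (CFLAR without WT_3, TNIP2 without Het_6), beside 1.23% to 3.85% of all genes. Those whose cluster of 3 did not overlap the rest numbered 9 to 13 (28.1% to 40.6%), beside 33.8% to 42.6% of all genes under the same leave-outs. The cause of these changes was not tested. No paired analysis was possible because the CREBBP+/- columns carry no labelled replicate number, so the planned replicate block was not run. Depth limited IER3 and EBI3.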
